A study of Sus scrofa with 36 samples.

Results

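DOK2, STX10, NOL11, TRIP6 and MTRF1 are 5 of the 11439 gene symbols measured in these pig livers. They were chosen as candidates for a difference between heat and thermoneutrality that is not alike in the 3 breeds. Of them, 4 were the named genes with the smallest unadjusted p for the interaction of breed and temperature. The members were every array probe named for these genes that gave a signal well above background on 6 or more of the 36 arrays. All 14 such probes passed: DOK2 had 4, STX10 had 1, NOL11 had 2, TRIP6 had 1 and MTRF1 had 6. None lay near that limit, because 12 of the probes were above background on all 36 arrays and the lowest was above it on 34. The genes were chosen by measured values, the differences between heat stress (HS) and thermoneutrality (TN) in each breed, so those differences are described below without a test. The differences between breeds averaged over both temperatures were tested. Where such a difference sat mostly in the heated animals it is not separate from the choice, and it is described without a p-value.

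Liver RNA came from 36 castrated male growing pigs of Large White (LW), Creole (CR) and their cross F1, with 12 animals a breed. Within each breed 6 animals were killed at TN, labelled 24 °C, and 6 after heat, labelled 30 °C, whereas the growth protocol gives 5 days at 32 °C. Per the study's methods littermates were spread over pens of 1 breed, and litter and pen are not in the labels, so the p-values below take the animals as independent. All TN animals were slaughtered some days earlier than the heated ones, so slaughter day and a small gain in age cannot be told apart from temperature. Values are log2 of the quantile-normalized median signal of a probe, each array holding 1 animal. Levels of different probes are not compared, since each probe has its own brightness.

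The 5 genes belong to unrelated processes. DOK2 (docking protein 2) is an adaptor that is phosphorylated by tyrosine kinases, recruits the Ras GTPase-activating protein and damps Ras signalling; it is best known from blood cells. STX10 (syntaxin 10) is a membrane fusion protein, or SNARE, that works in traffic between endosomes and the trans-Golgi network. NOL11 is a nucleolar protein of the small subunit processome, the complex that assembles on the ribosomal RNA precursor while it is modified and cut. TRIP6 is a LIM domain protein of the zyxin family that moves between focal adhesions and the nucleus. MTRF1 is a release factor that acts when mitochondrial ribosomes end a protein.

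The genes lie on different chromosomes of the pig assembly Sscrofa11.1. DOK2 is at chr14:6176487-6180895, STX10 at chr2:65914132-65917075, NOL11 at chr12:14035649-14058421, TRIP6 at chr3:8713221-8716891 and MTRF1 at chr11:25603784-25638576. Of the 14 probes, 7 were named through a pig transcript accession and 7 through the gene symbol in the file. The probe sequences below are shown because probes of the same gene gave different answers, so a reader needs to know which stretch was measured. They are 60-base probes as the array files give them, namely the upstream DOK2 and MTRF1 probes and the single TRIP6 probe. The rest of the 14 are named only.

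DOK2 A_72_P487503: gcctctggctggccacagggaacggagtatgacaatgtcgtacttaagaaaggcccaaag
DOK2 A_72_P037161: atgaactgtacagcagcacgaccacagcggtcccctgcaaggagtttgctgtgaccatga
TRIP6 O12924: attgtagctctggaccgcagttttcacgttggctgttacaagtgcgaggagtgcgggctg
MTRF1 A_72_P592384: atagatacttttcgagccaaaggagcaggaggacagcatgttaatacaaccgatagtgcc
MTRF1 A_72_P042321: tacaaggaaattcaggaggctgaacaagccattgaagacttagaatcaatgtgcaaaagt

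The first base of DOK2 A_72_P037161 is base 480 of its transcript and that of A_72_P487503 is base 1250, while the brightest DOK2 probe, A_72_P606558, starts at base 1775. In MTRF1, A_72_P042321 starts at base 686 and A_72_P592384 at base 1232. A second set of MTRF1 probes is crowded further along: A_72_P191081 starts at base 1816 and A_72_P547886 at base 1819, so they share 57 bases. The probe O7914 has the same sequence as A_72_P547886, which leaves 13 distinct sequences among the 14 probes. Those 3 MTRF1 probes are repeat readings of the same stretch and not independent evidence.

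The liver arrays were of even quality. Between 39644 and 44025 spots were well above background on each array and no spot was saturated. The arrays lay on 5 slides, each scanned once, and TN and HS arrays were in equal number on each. The labelled tissue bore its markers: all 8 hepatocyte marker genes on the array were above background on all 36 arrays, and the mean level of that list lay between 18.08 and 18.30 on the log2 scale on every array.

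At its brightest probe DOK2 gave the widest spread between breeds of the HS minus TN difference, 1.20, hardly more than TRIP6 at 1.19. The other DOK2 probes spread by 0.17 to 0.54. The brightest DOK2 probe, A_72_P606558, was higher under HS in F1, less so in CR, and level in LW. In F1 the 6 TN livers lay between 10.18 and 11.21 with a median of 10.56, and the 6 HS livers between 11.45 and 12.06 with a median of 11.84. Every heated F1 liver was above every F1 liver at TN. The difference was 1.19 ± 0.17 (SE of the fit), or 2.28-fold.

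In CR the same DOK2 probe ran from 10.44 to 11.74 at TN with a median of 11.11, and from 11.26 to 11.71 under HS with a median of 11.49. The CR groups overlapped, and all 6 heated livers were above the TN mean. The difference there was 0.43 ± 0.17. In LW the TN livers lay between 10.96 and 11.66 and the HS livers between 11.11 and 11.51, with a difference of -0.02 ± 0.17. The ordering of the 6 group means ran from F1 TN at 10.60 ± 0.38 (SD, n = 6) through CR TN at 11.06 ± 0.48, LW HS at 11.35 ± 0.15, LW TN at 11.37 ± 0.24 and CR HS at 11.49 ± 0.16 to F1 HS at 11.78 ± 0.25. Of the 5 steps in that order, the last, 0.30 from CR HS to F1 HS, was the only one above the larger SD of its pair. F1 thus held both the lowest and the highest group.

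The other DOK2 probes gave the same order of breeds with smaller differences. A_72_P487503 differed between HS and TN by 0.53 ± 0.12 in F1, where the groups again did not overlap, with TN livers at 7.51 to 7.83 and HS livers at 7.90 to 8.42. In CR it differed by 0.41 ± 0.12 and in LW by -0.01 ± 0.12. A_72_P037161 differed by 0.28 ± 0.09 in F1, 0.25 ± 0.09 in CR and 0.11 ± 0.09 in LW, with overlapping groups in each breed.

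The fourth probe did not follow them. O12156 differed by 0.07 ± 0.08 in F1, 0.24 ± 0.08 in CR and -0.05 ± 0.08 in LW. It was the dimmest DOK2 probe, above background on 35 arrays. It was named by a human DOK2 transcript, as TRIP6 O12924, STX10 O458, NOL11 O9769 and MTRF1 O7914 were named by human entries. Over the 36 arrays the signals of the first 3 DOK2 probes correlated with each other at Pearson r = 0.60 to 0.79, whereas O12156 correlated with them at 0.10 to 0.30. Averaging all 4 probes into a gene value gave 0.52 for F1. These r values are descriptions over arrays that share the group differences. After the group means were removed, the pair A_72_P606558 and A_72_P487503 still correlated at 0.60.

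**Figure D1:**
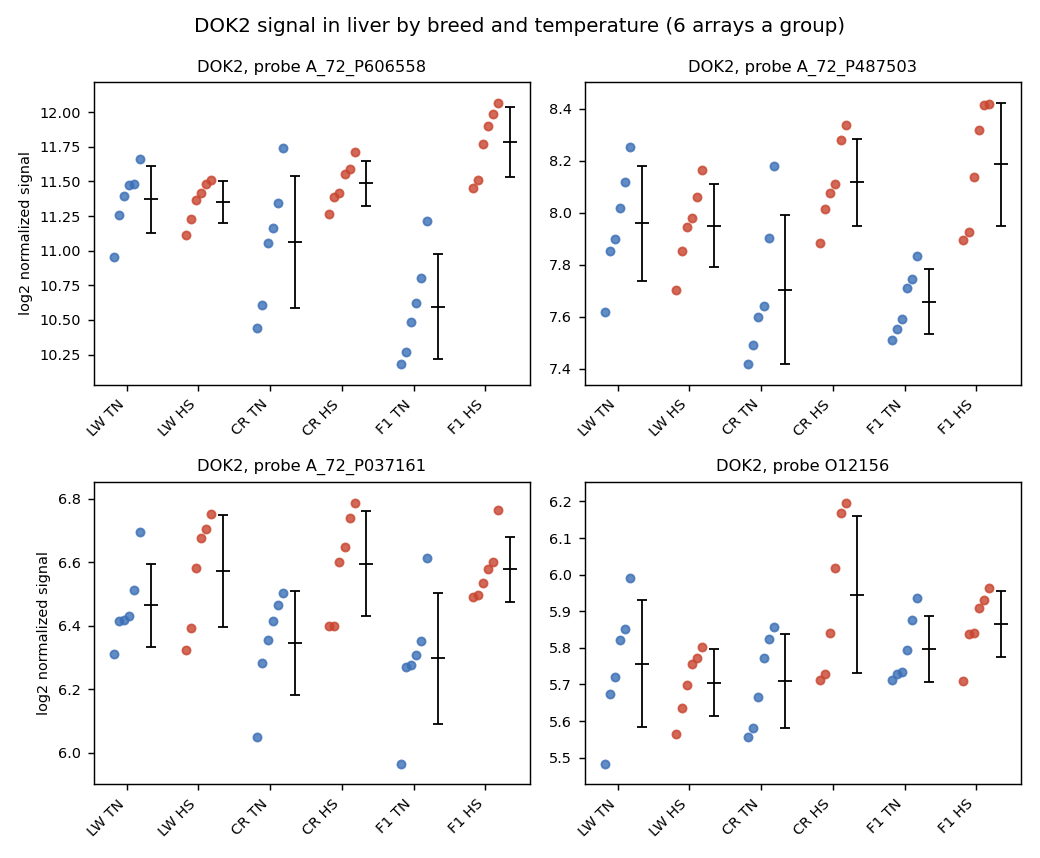
Log2 normalized signal of the 4 DOK2 probes (vertical axis, own scale in each panel) in the 6 groups (horizontal axis). Points are single animals, blue at TN and red under HS, and the bar beside each group is the mean with its SD; F1 TN and F1 HS do not overlap for A_72_P606558 and A_72_P487503.

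The DOK2 difference was seen on every slide that could show it. On each of the 4 slides that held F1 arrays of both temperatures the HS mean of A_72_P606558 was above the TN mean, by 1.46 on slide 2, 1.44 on slide 3, 1.55 on slide 4 and 0.45 on slide 5. With the slide as a block the F1 difference was 1.15. Leaving out any single array kept it between 1.1 and 1.31, though only fits without an F1 array could change it. As this difference chose the gene, these values are a description.

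DOK2 is known from blood cells, and bulk liver holds such cells, so marker lists of other cell types were set beside it. In bulk tissue fewer cells of a type and less RNA per cell cannot be told apart. Under HS in F1, where DOK2 A_72_P606558 was higher by 1.19, the mean level of 6 pan-leukocyte markers differed by -0.01 and that of 10 macrophage markers by -0.08. The pan-leukocyte list spanned 10.57 to 10.89 in F1 TN and 10.47 to 10.89 in F1 HS, with all 6 genes above background on every array. The macrophage list spanned 11.03 to 11.49 in F1 TN and 10.74 to 11.59 in F1 HS, and the T and NK cell list differed by -0.08. The B and plasma cell list, 6 genes of which 5 were above background on every array, differed by 0.10 in F1 and 0.09 in CR and by -0.02 in LW, which is the order of the breeds seen for DOK2. It spanned 6.61 to 7.11 in F1 TN and 6.82 to 7.07 in F1 HS, so the groups overlapped, and 5 of the 6 heated F1 livers were above the TN mean. The erythroid list of 3 genes differed by 0.18 in F1, -0.18 in CR and 0.06 in LW. The remaining 5 lists differed by between -0.02 and 0.09 in F1. Among them the neutrophil list also had the breed order of DOK2, at 0.03 in F1, -0.12 in CR and -0.20 in LW. The hepatocyte list had it too, with hardly any spread, at 0.036, 0.029 and 0.028. None of the 65 measured markers in the 10 lists passed limma's test of HS against TN over breeds (8 at an unadjusted p under 0.05).

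Among animals of the same group no relation of DOK2 with the 10 lists passed after adjustment over the 50 relations of 5 genes with 10 lists. The highest was with the hepatocyte list. Their deviations from the group means correlated at r = 0.38 (Spearman rho = 0.32, permutation p = 0.0348 and 0.0706, adjusted p = 0.563 and 0.558). Without the 2 arrays farthest from the list's median r was 0.29, with slide means removed it was 0.52, and within slides 2 to 5 it was 0.69, 0.73, 0.66 and 0.46. The B and plasma cell list came next, at r = 0.34 (rho = 0.17, permutation p = 0.0906 and 0.379, adjusted p = 0.746 and 0.903), which was 0.09 without the 2 farthest arrays. The macrophage list gave r = -0.18 (rho = -0.13, permutation p = 0.295 and 0.485) and the pan-leukocyte list r = 0.13 (rho = 0.11, permutation p = 0.515 and 0.559). The adjusted p of the last pair of r values was 0.965.

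TRIP6 gave an F1 difference of similar size. In F1 its single probe O12924 lay between 7.67 and 9.36 at TN with a median of 8.23, and between 9.16 and 9.72 under HS with a median of 9.46. The 6 heated livers were all above the TN mean and 4 of them above the highest TN liver, so the groups overlapped. The difference was 1.07 ± 0.21, or 2.10-fold.

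That F1 difference came with an uneven TN group. The SD of TRIP6 in F1 TN was 0.65, against 0.21 to 0.38 in the other 5 groups. In LW TRIP6 spanned 8.98 to 9.56 at TN and 9.15 to 9.90 under HS, a difference of 0.08 ± 0.21. In CR it spanned 8.22 to 9.27 at TN and 8.47 to 9.28 under HS, a difference of -0.12 ± 0.21. The order of the group means was F1 TN at 8.38, CR HS at 8.71, CR TN at 8.82, LW TN at 9.35, LW HS at 9.43 and F1 HS at 9.45. The step from CR TN to LW TN was the only one above the SDs of both its groups. Heated F1 livers were thus close to LW livers, and the mean of F1 livers at TN lay below that of CR livers.

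On slides the TRIP6 difference in F1 was positive throughout but uneven, at 1.30 on slide 2, 0.35 on slide 3, 1.77 on slide 4 and 0.55 on slide 5. Slide 4 held the lowest pair of F1 TN livers, and without that slide the difference was 0.75.

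STX10 had its largest difference in CR, where it was lower under HS. Its probe O458 was bright and steady, with SDs of 0.05 to 0.13 in the 6 groups. In CR the TN livers lay between 12.03 and 12.38 with a median of 12.25, and the HS livers between 11.66 and 12.04 with a median of 11.95. Of the heated CR livers 5 were below the lowest CR liver at TN. The difference was -0.33 ± 0.07, which is 0.796 of the TN level.

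In LW STX10 spanned 11.83 to 12.09 at TN and 11.997 to 12.11 under HS, and all 6 heated livers were above the TN mean, by 0.08 ± 0.07 on average, a difference close to its SE. In F1 it spanned 12.005 to 12.27 at TN and 11.97 to 12.23 under HS, a difference of -0.05 ± 0.07. CR TN was the highest group at 12.24 ± 0.13 (SD, n = 6) and CR HS the lowest at 11.91 ± 0.13, with the other 4 groups between 11.98 and 12.10. On all 4 slides that held CR arrays of both temperatures STX10 was lower under HS, with differences between -0.43 and -0.15.

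**Figure D2:**
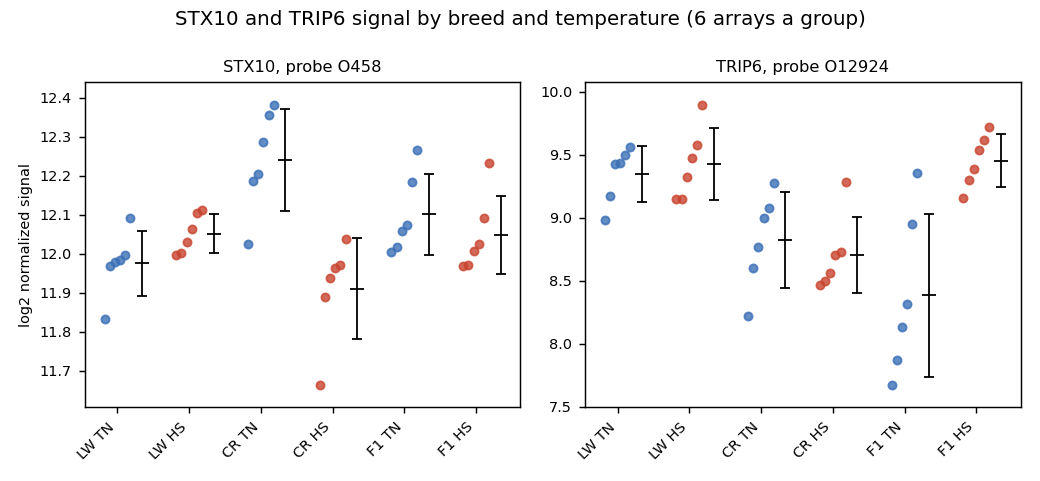
Log2 normalized signal of STX10 probe O458 and TRIP6 probe O12924 (vertical axes) in the 6 groups (horizontal axis). Points are single animals, blue at TN and red under HS, with mean and SD beside them; 5 of 6 CR HS livers are below all CR TN livers for STX10, and F1 TN has the widest spread for TRIP6.

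NOL11 gave 2 answers. Its brighter probe, A_72_P203797, was lower in heated F1 livers than in any other group. F1 livers lay between 8.99 and 9.35 at TN with a median of 9.09, and between 8.83 and 8.94 under HS with a median of 8.88. The groups did not overlap and the difference was -0.25 ± 0.07. In CR the difference was 0.14 ± 0.07, with 9.08 to 9.28 at TN and 9.07 to 9.41 under HS. In LW it was 0.04 ± 0.07, with 9.02 to 9.30 at TN and 9.18 to 9.39 under HS.

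F1 HS at 8.88 ± 0.05 (SD, n = 6) was the lowest group for this NOL11 probe, and the other 5 means lay between 9.14 and 9.31. The SDs of those 5 were 0.08 to 0.14, so that neighbours among them did not differ beyond their spread. On the 4 slides with both F1 groups the difference was -0.21, -0.14, -0.47 and -0.12 in slide order. The dimmer probe O9769, written nol11 in the file, differed by 0.06 ± 0.08 in F1, 0.12 ± 0.08 in CR and -0.02 ± 0.08 in LW. The signals of both NOL11 probes correlated over the 36 arrays at r = -0.21, and at 0.00 once the group means were removed.

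MTRF1 gave different answers at different probes. The 3 crowded probes near base 1816 were lower in heated F1 livers. For A_72_P191081 the F1 livers lay between 7.25 and 7.91 at TN with a median of 7.73, and between 6.27 and 7.17 under HS with a median of 6.91. All heated F1 livers were below all F1 livers at TN. The difference was -0.86 ± 0.14, so the HS level was 0.551 of the TN level.

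The pair of probes with identical sequence gave -0.79 ± 0.15 (O7914) and -0.77 ± 0.15 (A_72_P547886) in F1, and 5 of 6 heated livers were below the TN range in each. In LW and CR the 3 probes differed between HS and TN by between -0.08 and 0.05. F1 HS was the lowest of the groups for A_72_P191081, at 6.75 ± 0.39 (SD, n = 6). The other 5 group means were 7.61 to 7.82 and did not differ beyond their SDs of 0.09 to 0.31. The 3 probes correlated with each other over the arrays at r = 0.96 to 0.97.

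The other MTRF1 probes showed no such difference in F1. A_72_P592384 and A_72_P042321, whose sequences are given above, differed by -0.03 ± 0.11 and -0.05 ± 0.16 in F1. A_72_P190681, designed on an expressed sequence tag and without a given place in the transcript, differed by -0.05 ± 0.08. A_72_P042321 was the dimmest of all member probes, above background on 34 arrays. In LW these 3 probes differed by -0.16 to -0.12 and in CR by -0.19 to -0.15. Over the arrays they correlated with the crowded probes at r = -0.09 to 0.27. Averaging the 6 probes would give a gene difference of -0.43 in F1, a value that none of the probes showed.

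**Figure D3:**
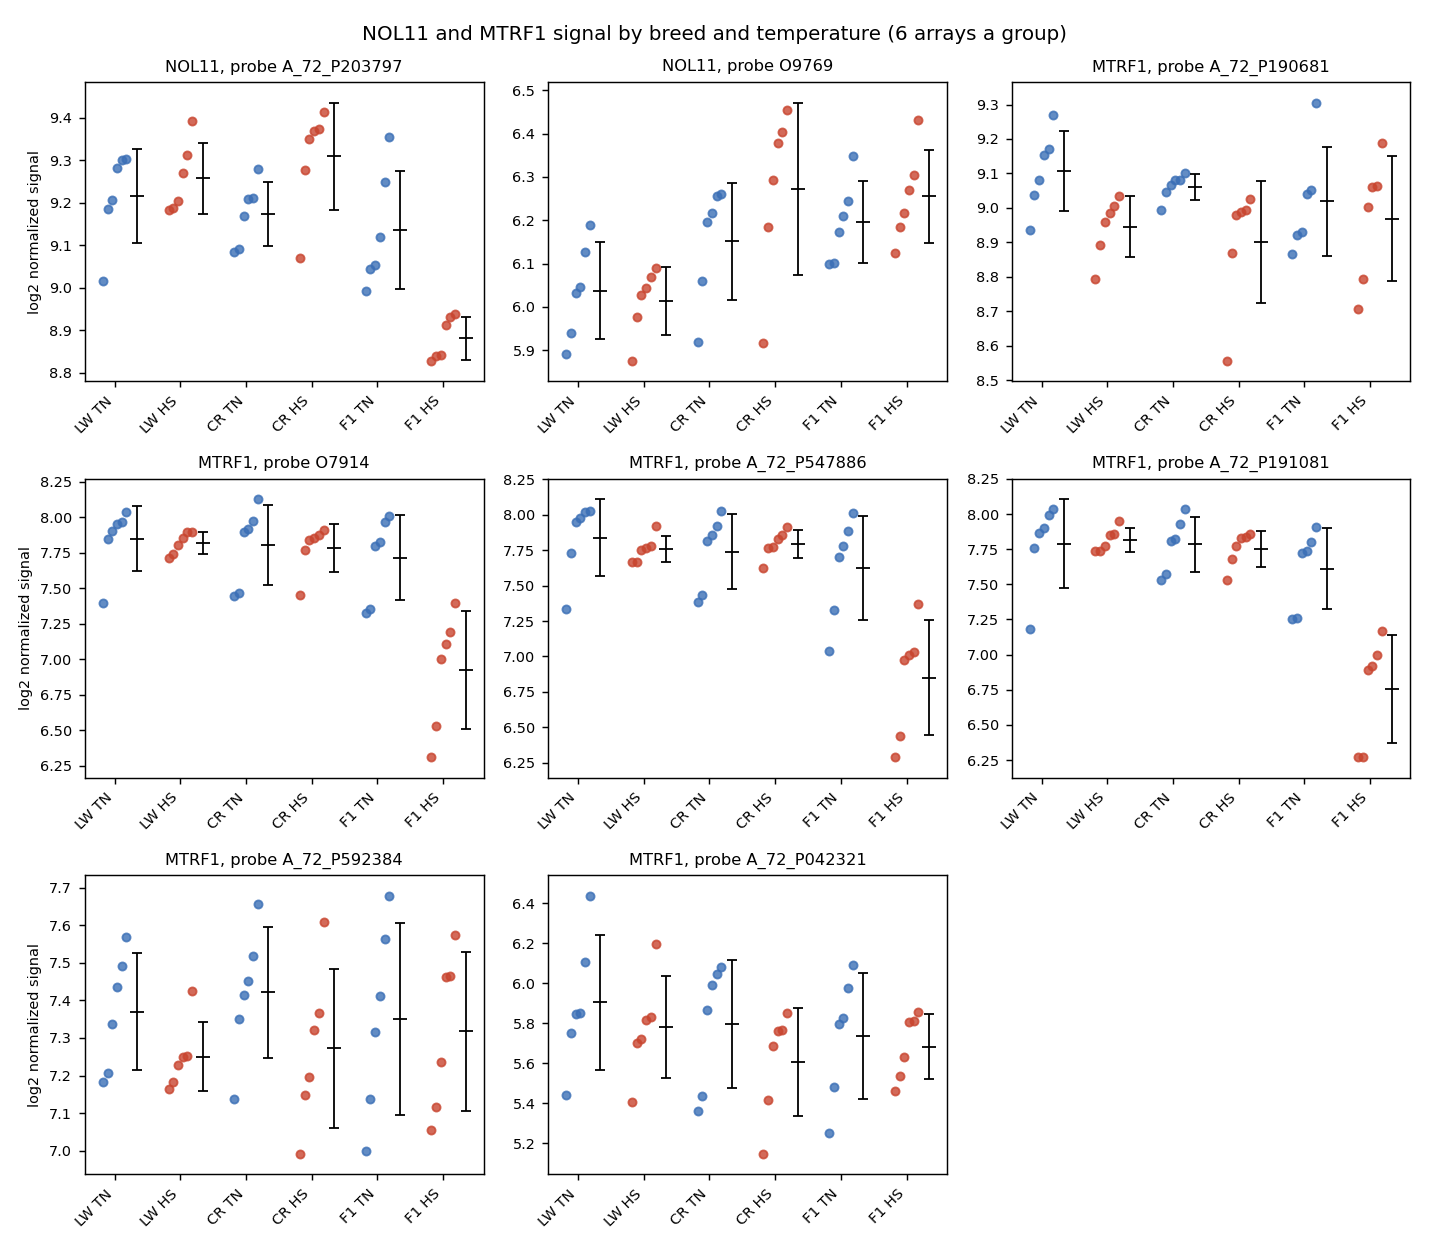
Log2 normalized signal of the 2 NOL11 and 6 MTRF1 probes (vertical axes, own scale in each panel) in the 6 groups (horizontal axis). Points are single animals, blue at TN and red under HS, with mean and SD beside them; heated F1 livers are lowest for NOL11 A_72_P203797 and for MTRF1 O7914, A_72_P547886 and A_72_P191081 and not for the other MTRF1 probes.

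Seen together, the 14 probes differed between HS and TN by -0.16 to 0.11 in LW, by -0.33 to 0.43 in CR and by -0.86 to 1.19 in F1. In F1, 4 of the 14 probes had groups that did not overlap, against 0.348% of all 44796 kept probes in that breed, and in LW and CR none did, against 0.324% and 0.375%. Since these differences chose the genes, nothing is read from that count. Over all kept probes, limma's test of HS against TN called none in LW (0%), none in CR (0%) and 4 in F1 (0.00893%). At an unadjusted p under 0.05 there were 2289 in LW (5.11%), 3315 in CR (7.4%) and 4167 in F1 (9.3%). No probe was called for the interaction of breed and temperature (0%), with 1677 at an unadjusted p under 0.05 (3.74%). That last share is no higher than such a threshold gives by chance.

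**Figure D4:**
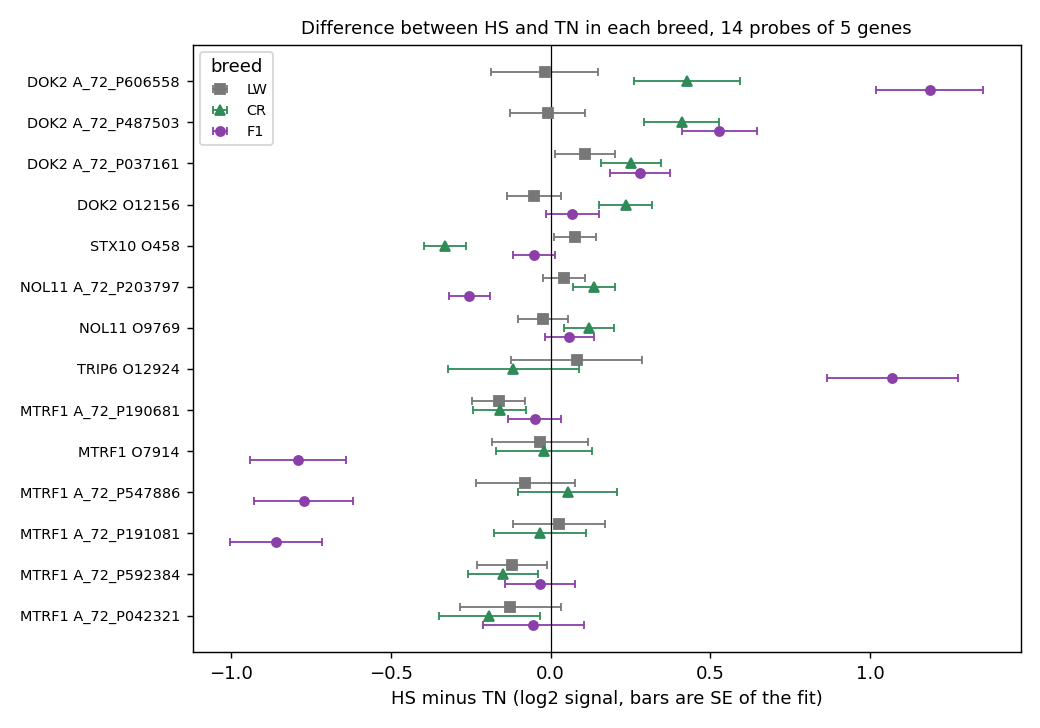
Difference between HS and TN (horizontal axis, log2 signal) for each of the 14 probes (vertical axis) in LW (grey squares), CR (green triangles) and F1 (purple circles), with bars for the SE of the fit. The values range from -0.86 to 1.19 in F1 and from -0.16 to 0.11 in LW, and probes of NOL11 and MTRF1 differ among themselves in F1.

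The breeds were then compared over both temperatures, with limma's moderated test adjusted over all kept probes by the Benjamini-Hochberg procedure. Of 56 tests, 14 probes in 4 comparisons, 15 passed. CR against LW called 2 of the 14 probes, where 26.5% of all kept probes were called. F1 against LW called 5 (18.3% of all kept probes), F1 against CR called 4 (1.5%) and F1 against the mid-parent value, the mean of both parental breeds, called 4 (1.13%). As 3 of the 14 probes read the same MTRF1 stretch, these counts weigh that gene heavily. Moreover 12 of the 15 calls were of F1 at those 3 MTRF1 probes and at NOL11 A_72_P203797, where the heated F1 livers that chose the genes held most of the difference, and nothing is read from them. The remaining 3 were TRIP6 in CR against LW and NOL11 O9769 in CR and in F1 against LW. At O9769 the CR difference was also mostly in the heated animals, 0.26 under HS and 0.11 at TN, and nothing is read from it.

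TRIP6 was lower in CR than in LW. The difference was -0.62 ± 0.18 (SE), which is 1.54-fold, with an adjusted p of 0.0082 by limma. LW livers lay between 8.98 and 9.90 with a median of 9.43 and CR livers between 8.22 and 9.28 with a median of 8.71, so the ranges overlapped. CR was lower at both temperatures, by -0.52 at TN and -0.72 under HS. F1 stood between them on average, at -0.47 ± 0.18 from LW, which did not pass (adjusted p = 0.0592), and at 0.15 ± 0.18 from CR (adjusted p = 0.821). The F1 average joins unlike parts, since F1 was -0.96 from LW at TN and 0.03 under HS.

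At the crowded MTRF1 probes the F1 average lay below both parental breeds, and most of this was in the heated animals. For A_72_P191081 F1 was -0.18 from LW and -0.17 from CR at TN, and -1.06 and -0.999 under HS. The breed average is thus not separate from the F1 difference that chose the gene, and it is given as a description. It was -0.62 ± 0.13 from LW, -0.59 ± 0.13 from CR and -0.60 ± 0.11 from the mean of LW and CR. The other readings of that stretch gave -0.51 (O7914) and -0.56 (A_72_P547886) from LW, and -0.47 and -0.53 from CR. The calls from CR were not steady: that of O7914 was lost in 22 of 36 fits with a single array left out, without slide 1, 2, 3 or 5, with the log2 table and with no filter on dim probes. Those of the other pair were lost without slide 2, 3 or 5. LW and CR themselves differed at A_72_P191081 by -0.04 ± 0.13 (adjusted p = 0.874 by limma). None of the other 3 MTRF1 probes passed in any of the 4 comparisons.

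NOL11 differed between breeds in opposite directions at its 2 probes. At A_72_P203797 the heated animals again held most of the difference, with F1 at -0.38 from LW and -0.43 from CR under HS and at -0.08 and -0.04 at TN. The F1 average, -0.23 ± 0.06 from LW, -0.23 ± 0.06 from CR and -0.23 ± 0.05 from the mean of both, is therefore a description and not separate from the choice. Its call from LW was lost without slide 2 (-0.19). The call from CR was lost without slide 1, 2, 3 or 5 and with the processed signal, and that from the mean of both without slide 2, 3 or 5. LW and CR did not differ beyond the test (0.00 ± 0.06, adjusted p = 0.966 by limma).

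The other NOL11 probe, O9769, was higher than in LW in both CR, by 0.19 ± 0.05, and F1, by 0.20 ± 0.05. The F1 difference passed (adjusted p = 0.0107 by limma) and was 0.16 at TN and 0.24 under HS. The CR difference was 0.11 at TN and 0.26 under HS. As most of it was in the heated animals, it is not separate from the choice and is a description. Without slide 3 neither call was kept (0.17 for CR, 0.19 for F1, adjusted p = 0.1004 for F1), nor without slide 4 (0.16 and 0.18). A single value for NOL11 would hide both patterns: the mean of its probes was -0.01 for F1 against LW.

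DOK2 and STX10 did not pass any breed test. For DOK2 A_72_P606558, CR minus LW was -0.09 ± 0.15, F1 minus LW -0.17 ± 0.15 and F1 minus CR -0.08 ± 0.15 (adjusted p = 0.721, 0.475 and 0.909 by limma). These averages again joined unlike parts, as F1 was -0.78 from LW at TN and 0.43 under HS. For STX10 the same comparisons gave 0.06 ± 0.06, 0.06 ± 0.06 and -0.00 ± 0.06 (adjusted p = 0.459, 0.501 and 0.998). CR was 0.27 above LW at TN and -0.14 from it under HS.

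**Figure D5:**
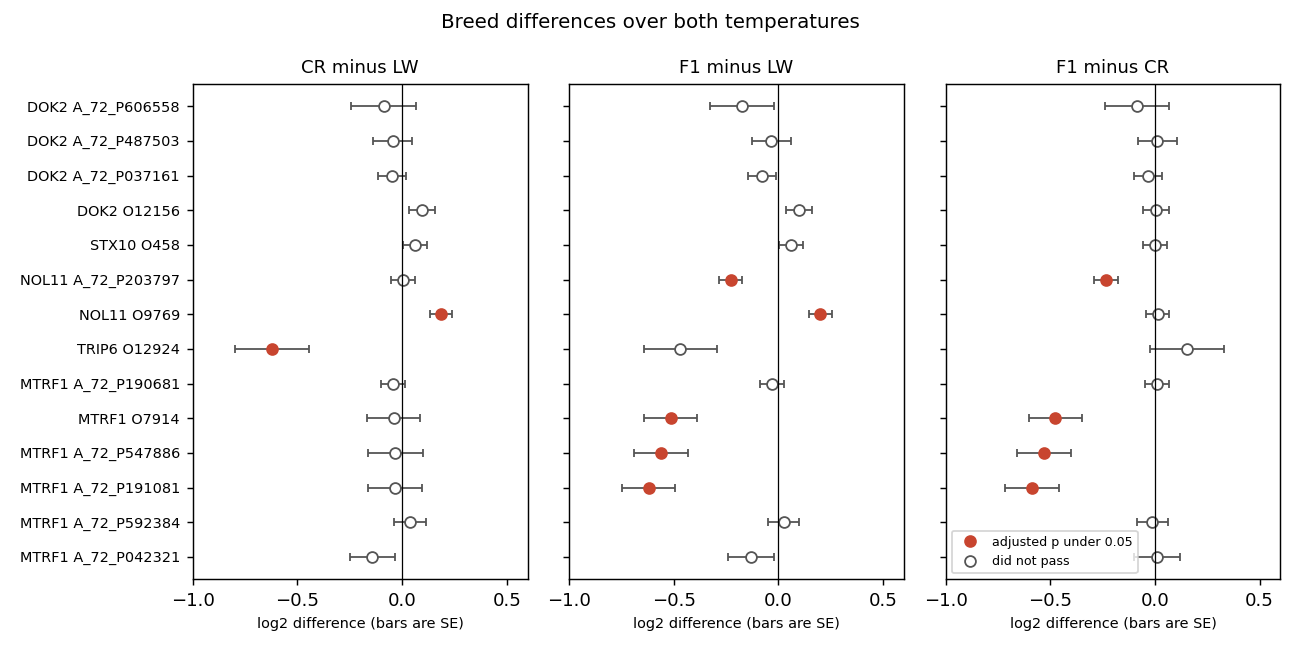
Differences between breeds over both temperatures (horizontal axes, log2 signal, bars are SE) for the 14 probes (vertical axis), from limma. Filled red points passed an adjusted p of 0.05: 2 probes in CR minus LW, 5 in F1 minus LW and 4 in F1 minus CR. The calls of F1 at MTRF1 and at NOL11 A_72_P203797 rest mostly on the heated livers that chose the genes. The CR difference at NOL11 O9769 was also mostly under HS.

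The cell type lists moved with breed and are given beside the breed differences. CR livers were lower than LW livers in 4 of 6 pan-leukocyte, 8 of 10 macrophage, 4 of 5 neutrophil and 5 of 6 endothelial markers, each by limma over all probes, where 25.9% of the brightest probes per gene were called. Of the 10 T and NK cell markers, 7 were lower and 1 higher. In F1 against LW, where 17.4% were called, 7 of 10 macrophage and 4 of 6 pan-leukocyte markers were lower. Of the 6 B and plasma cell markers 1 was lower in CR. None of the relations of TRIP6, which was also lower in CR, with the lists passed after adjustment. The highest was with the B and plasma cell list, at r = 0.39 of the deviations from the group means (Spearman rho = 0.25, permutation p = 0.0563 and 0.192, adjusted p = 0.563 and 0.872), which was 0.18 without the 2 arrays farthest from the list's median. With the macrophage list it was r = -0.18 (rho = -0.16, permutation p = 0.264 and 0.361, adjusted p = 0.965 and 0.903). Any further part of these cell types in the breed differences was not tested.

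Of the 68 partner genes measured in 5 lists, 1 passed limma's test of HS against TN over breeds (3 at an unadjusted p under 0.05). The counts below use the brightest kept probe of each gene, of which limma called 0.935% in HS against TN over breeds and 25.9% in CR against LW (11.7% higher and 14.3% lower). Of 11 docking protein partners none was called with heat, and the list's median difference was -0.02 against 0.00 for all genes. The pair with the smallest unadjusted p were DOK4, a relative of DOK2, at -0.13 ± 0.09 (adjusted p = 0.611), and the kinase CSK at -0.07 ± 0.06 (0.639). CR was lower than LW in DOK1, a close relative of DOK2 (-0.47 ± 0.08, adjusted p = 5.4e-05 by limma). It was also lower in the Ras GTPase-activating protein RASA1 (-0.34 ± 0.07, 0.000279) and the adaptor NCK2 (-0.19 ± 0.06, 0.025). The NCK2 call was lost with the mean of all its probes (-0.08, adjusted p = 0.139 by limma) and without slide 3, 4 or 5. The adaptor GRB2 was higher by 0.28 ± 0.08 (0.00714) at its brightest probe, and lower by the mean of all its probes (-0.16, adjusted p = 0.000584 by limma).

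Of 16 SNAREs and fusion factors of the Golgi and endosomes, 1 was called with heat. VTI1B, a SNARE of late endosomes, rose by 0.27 ± 0.05 over breeds (adjusted p = 0.00715 by limma). STX10 itself differed by -0.10 ± 0.05 over breeds. In CR against LW, 4 were lower, namely STX12 (-0.37 ± 0.07), VPS45 (-0.27 ± 0.06), STX7 (-0.26 ± 0.08) and SNAP23 (-0.20 ± 0.06). Their adjusted p values by limma were 0.000122, 0.00101, 0.0149 and 0.00615. Without slide 3 neither STX7 (-0.21) nor SNAP23 (-0.20) passed, and without slide 2 SNAP23 was -0.135. VTI1B no longer passed without slide 3 or 5 (0.25 in both). The list's median was -0.09 for CR minus LW against -0.01 for all genes.

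The small subunit processome list, which includes factors of ribosomal RNA transcription, held 19 measured symbols, with UTP4 there under its current and its older name CIRH1A. None was called with heat, and CIRH1A at -0.17 ± 0.06 (adjusted p = 0.19 by limma) and UTP4 at -0.16 ± 0.07 (0.308) had the smallest unadjusted p. In CR against LW 6 were higher and none lower. The 4 largest were UTP18 (0.53 ± 0.16, adjusted p = 0.0103), the small nucleolar ribonucleoprotein NOP56 (0.53 ± 0.15, 0.0101), its relative NOP58 (0.23 ± 0.07, 0.0181) and the ribosomal RNA transcription factor UBTF (0.21 ± 0.07, 0.0259). With the mean of all probes of a gene neither NOP56 (0.16, adjusted p = 0.218) nor NOP58 (0.07, 0.574) passed by limma, and without slide 3 none of the 4 did (NOP56 0.38, NOP58 0.17, UTP18 0.502, UBTF 0.18). NOL11 O9769 was higher in CR too, mostly under HS, and NOL11 A_72_P203797 was not.

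Of 12 zyxin family and focal adhesion genes none was called with heat. The scaffold PXN at 0.09 ± 0.05 (adjusted p = 0.466 by limma) and FBLIM1 at 0.07 ± 0.04 (0.542) had the smallest unadjusted p. In CR against LW the actin cross-linker ACTN1 was higher by 0.42 ± 0.09 (0.00125). The LIM protein LIMD1 (-0.30 ± 0.06, 0.000775) and VASP (-0.12 ± 0.05, 0.0473) were lower, as TRIP6 was, though VASP was no longer called in 27 of 50 alternative fits.

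Of 10 mitochondrial translation factors none was called with heat. The elongation factor TUFM at -0.11 ± 0.06 (adjusted p = 0.471 by limma) and the initiation factor MTIF2 at 0.06 ± 0.06 (0.747) had the smallest unadjusted p. CR was higher than LW in MTIF2 by 0.30 ± 0.07 (0.00174), in the peptidyl-tRNA hydrolase MRPL58 by 0.24 ± 0.06 (0.00194; 0.11 and not passing with the mean of its probes) and in the release factor methyltransferase HEMK1 by 0.22 ± 0.08 (0.0497). HEMK1 was no longer called in 33 of 50 alternative fits. The interaction of breed and temperature called no gene in any of the 5 partner lists (0% of all genes; the lists held 2 genes at an unadjusted p under 0.05).

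Among animals of the same group no pair of the 5 genes had a correlation that passed after adjustment. Over 10 pairs the correlation of deviations from the group means, at the brightest probe of each gene, ran from r = -0.19 to 0.44. The highest was DOK2 with TRIP6 at r = 0.44 (Spearman rho = 0.28), with a permutation p of 0.0339 and 0.141 and an adjusted p of 0.339 and 0.703. Without the 2 arrays farthest from the TRIP6 median it was 0.26, and with slide means removed it was 0.47. Within slides 2 to 5 it was 0.58, -0.23, 0.86 and 0.55. MTRF1 was entered at A_72_P190681, which did not show the F1 difference of the crowded probes. Its pairs therefore say nothing about that stretch.

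Of the 50 relations with marker lists, MTRF1 A_72_P190681 with the 6 stellate cell markers passed, at r = -0.58 (permutation p adjusted to 0.041). Its Spearman rho of -0.54 did not pass (adjusted p = 0.104). Without the 2 arrays farthest from the list's median r was -0.46, and within slides 2 to 5 it was -0.74, -0.62, -0.19 and -0.36. No other relation passed.

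The genes with the most alike patterns were sought over the 36 arrays among 11434 other genes at their brightest probe. For DOK2 they were PALMD (r = 0.73), SETDB1 (0.72) and SPATA20 (0.68). For STX10 they were ARHGAP11A (0.72), AKR1A1 (0.71) and CFAP36 (0.70), and for NOL11 ADCY10 (0.72), MDH2 (0.69) and PDK3 (0.66). For TRIP6 they were C5 (0.70), MID2 (0.69) and HOXA3 (0.68). For MTRF1 A_72_P190681 the best were lower, with BUB3 at 0.56, PHTF1 at 0.55 and SOCS4 at 0.55. These are the highest of many r values over arrays that share the group differences. With the group means removed the DOK2 values were 0.52, 0.45 and 0.58.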

How the data were processed

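Liver RNA of 36 pigs was measured on 36 one-colour Agilent arrays. The authors deposited scanner tables of Agilent Feature Extraction 10.10.1.1, whose spot signals are intensity values on a linear scale, as yet without normalization across arrays. A table of log2 values was also deposited for 42051 probes, described as quantile normalized. Its array medians were 7.66 and its row means spanned only 6.43 to 9.21, against 5.01 to 18.9 here, so its centring is unknown and only its differences between arrays were used.

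Here the median signals of 60306 non-control spots were log2 transformed and quantile normalized. The 107 spots with an outlier flag were set as missing, and a probe was kept if well above background on 6 or more arrays (44796 of 60305, 74.3%). No spot intensity was saturated. The median signal was 70.0 to 92.0 per array against a background of 18.0 to 25.0, and the number of arrays limits the precision. Names came from the files and the RefSeq table of Sscrofa11.1. A gene's representative is its kept probe of highest mean signal.

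Groups came from the sample labels. limma 3.58.1 in R 4.3.3 was fitted to all 36 arrays, with breed and temperature for breed differences and temperature over breeds, and 6 group means for temperature within breeds and the interaction. P values were adjusted over all kept probes (Benjamini-Hochberg, 0.05). Pen, slaughter day, father and mother, random effects in the study's model, are not in the labels. Relations used two-sided permutation within groups (100000 resamples). Alternatives were the processed signal scaled to the 75th percentile, normexp (offset 50), the log2 table, the slide as a block, array weights, a trended robust spread, other filters, a value per gene, and leaving out each slide and array. On simulated CR minus LW data of 44723 probes, limma recovered 86.5% of 200 probes changed by 0.5 and 97.5% of those changed by 1. It also called 7 and 18 unchanged probes. For HS minus TN in F1 it recovered 60.0% and 95.5%, and called 5 and 7 unchanged probes. The simulated noise was independent between arrays and probes, without slide, litter or pen, so recovery in the real data may be lower.

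From each partner list the genes named were those past the threshold for temperature over breeds or CR minus LW, at most 4 a comparison by size, or the 2 with the smallest unadjusted p where none passed. The 3 most alike genes were named per member. The members and lists were chosen with earlier results of these data known.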

Additional observations from a re-analysis of the deposited data

Results flagged for a closer look

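STX10 lay on opposite sides of the TN mean in heated LW and heated CR livers. All 6 heated LW livers were above the LW mean at TN (0.08 on average) and all 6 heated CR livers were below the CR mean at TN (-0.33), a gap of -0.41. The LW difference was close to its SE (0.08 ± 0.07) and ran from -0.00735 to 0.198 on the 4 slides that held both LW groups, so a change in LW was not shown. The difference between these breeds was not tested, since it chose the gene.

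Over 84 checks of a probe in a group of 6, 6 had an animal whose gap to its neighbour was over 0.625 of the group's range, and chance flags about 1 in 20, or 4.2 checks. TRIP6 had a high animal in CR HS (9.28 against 8.73 for the next, gap 0.685 of the range). MTRF1 A_72_P190681 had a low animal in CR HS (8.56 against 8.87, 0.665), which was also the low animal for O7914 (7.45 against 7.77, 0.696). A single LW TN animal was low for MTRF1 O7914 (7.40 against 7.85, 0.706) and A_72_P191081 (7.18 against 7.76, 0.67), which read the same stretch. MTRF1 A_72_P592384 had a high animal in LW HS (7.42 against 7.25, 0.668).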

How the results depend on the processing

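The 14 differences between HS and TN that were over 2 SE kept their direction in all 691 recomputed values. Of all 2064 recomputed values, 6 moved by more than the spread between animals. Many of these values could not change, since leaving out an array of another breed returns the same estimate. The differences also chose the genes, so both counts are descriptions and not support. With the processed signal DOK2 A_72_P037161 gave 0.47 in F1 and DOK2 O12156 0.47 in CR and 0.19 in F1. With a value per gene DOK2 gave 0.52, NOL11 -0.10 and MTRF1 -0.43 in F1. For the 15 breed differences that passed, 678 of 739 recomputed tests passed too and none changed direction. Most of the 15 were the F1 calls at the crowded MTRF1 probes and at NOL11 A_72_P203797. Nothing is read from those calls or from that of NOL11 O9769 in CR, and this count is no support for them.

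The calls lost came mostly with a slide left out, which removes up to 8 arrays. For NOL11 A_72_P203797 F1 minus LW was lost without slide 2 (-0.19). F1 minus CR was lost without slides 1, 2, 3 and 5 (-0.22, -0.22, -0.24, -0.21) and with the processed signal (-0.225), and F1 minus the mid-parent value without slides 2, 3 and 5 (-0.21, -0.24, -0.21). With a value per gene these NOL11 differences were -0.0143, -0.11 and -0.0618. NOL11 O9769 was lost without slides 3 and 4 in CR minus LW (0.17, 0.16) and in F1 minus LW (0.19, 0.18). For MTRF1 O7914 F1 minus LW was lost without slide 3 (-0.53). Its F1 minus CR was lost without slides 1, 2, 3 and 5 (-0.47, -0.45, -0.53, -0.37), with the log2 table (-0.49) and with no filter (-0.47), and F1 minus the mid-parent value without slides 2, 3 and 5 (-0.49, -0.53, -0.38). In the same slide order A_72_P547886 gave -0.52, -0.55 and -0.41 from CR and -0.54, -0.57 and -0.41 from the mid-parent value. A_72_P191081 gave -0.59, -0.63 and -0.49, and -0.60, -0.63 and -0.50. Leaving out single arrays, MTRF1 O7914 F1 minus CR ranged from -0.53 to -0.39 and was lost in 22 of 36 fits, and NOL11 A_72_P203797 F1 minus CR from -0.26 to -0.22, lost in 1.

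The number of the 14 probes called in CR minus LW was 1 without slide 3 and 1 without slide 4, and in F1 minus LW 3 without slide 3. In F1 minus CR it was 2 without slide 1 and 0 without slides 2, 3 and 5, and 2 to 4 with single arrays left out. For F1 minus the mid-parent value it was 0 without slides 2, 3 and 5. STX10, which passed nowhere, turned sign near zero: CR minus LW was -0.00501 in the log2 table, and F1 minus CR was 0.00643 with the processed signal, 0.00848 in the log2 table, 0.000391 with the slide block, 0.0508 without slide 2, 0.00966 without slide 4 and -0.0347 to 0.0232 with single arrays left out.

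Of 950 recomputed tests of the 19 partner genes called, 89 no longer passed, and GRB2 turned from higher to lower in CR (-0.16) with a value per gene. Over all probes the number called ranged from 70 to 532 for HS against TN over breeds (384 as reported), from 3008 to 14014 for CR minus LW (11855), from 1584 to 11619 for F1 minus LW (8220), from 120 to 895 for F1 minus CR (674) and from 55 to 1666 for F1 minus the mid-parent value (504). Within breeds it was 0 to 3 in LW, 0 to 113 in CR and 0 to 61 in F1, and 0 throughout for the interaction. No paired analysis was possible, because TN and HS livers came from different animals and the labels do not give litter or pen.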
